A study of Mus musculus with 20 samples.

Results

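Sprr1a and Crct1 are 2 genes of the epidermal differentiation complex, each measured by 1 probe, among the 19057 genes and 45281 probes of a bead array study of the mouse left ventricle. All their probes were taken, whatever their detection. Both were chosen by their intensity difference between infarcted and sham-operated animals, which earlier results of these data had shown to be among the largest, so that difference is given below as a description with no test. The study used C57BL/6J mice aged 12 to 15 weeks in 4 groups of 5. Males and females each had a sham-operated group and a group with myocardial infarction (MI) from ligation of a coronary artery. Ventricular tissue without the infarct was taken on day 3 after the operation, and each array holds RNA of 1 mouse. No transgene, drug or deletion is named for any group, and no source used here states how far the tissue lay from the infarct border.

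The cornified envelope is the cross-linked protein shell under the membrane of the outermost skin cells. Transglutaminases build it from loricrin, involucrin, the small proline-rich (Sprr) proteins and the late cornified envelope (Lce) proteins, whose genes lie side by side in the epidermal differentiation complex on mouse chromosome 3. Sprr1a encodes one of these small proline-rich precursors and is also known outside the skin: it is induced in rodent heart muscle cells by stress and by cytokines that signal through the receptor subunit gp130, and in injured peripheral neurons during axon regrowth. Crct1 (cysteine-rich C-terminal 1) lies in the same complex, next to the Lce genes, and is known from squamous epithelia.

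The region around the start of Sprr1a is shown because AP-1 (Fos and Jun family dimers) and STAT factors (the transcription factors of gp130 signalling) are among the gene groups examined below. It spans 250 bases before to 50 bases after the annotated start, at chr3:92485832-92486131 on the minus strand of GRCm38.p6, and comes from RefSeq. Capitals mark matches to the AP-1 motif (TGANTCA) and to the TATA motif (TATAAA), searched on both strands.
Sprr1a promoter: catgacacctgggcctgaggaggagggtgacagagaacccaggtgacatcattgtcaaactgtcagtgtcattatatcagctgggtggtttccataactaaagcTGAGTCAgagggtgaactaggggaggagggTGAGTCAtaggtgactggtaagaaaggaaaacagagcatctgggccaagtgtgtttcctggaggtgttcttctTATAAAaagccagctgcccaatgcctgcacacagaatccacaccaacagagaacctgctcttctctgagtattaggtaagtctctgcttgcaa
The window held 2 AP-1 matches, starting at -146 and -116 relative to the gene start, and 1 TATA match at -43. It held 0 matches to the STAT motif (TTCNNNGAA) and 0 to the M-CAT motif of muscle genes (CATTCC). Of 32851 mouse promoters of this length, 7.81% held at least 1 AP-1 match and 0.460% held 2 or more. The STAT motif was in 8.30% of them, the M-CAT motif in 14.7% and the TATA motif in 13.6%. Among the promoters of 46 other genes of the envelope list, 16 held an AP-1 match and 1 held 2 or more. These matches describe letters in the window and not binding. Crct1 had 0 entries in the promoter table.

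The arrays had a median raw intensity between 31.4 and 39.2, and 15670 to 18388 probes per array were detected, meaning a detection p under 0.01. All 11 measured cardiomyocyte markers were detected on all 20 arrays, and the sex-linked transcripts matched the labelled sex on 20 of 20. Sex and chip nearly coincide. Of 4 chips, the first held 3 sham and 3 MI males, and the second held 2 males of either kind beside 2 sham females. The third held 4 MI and 2 sham females, and the fourth had 1 female of either kind. They are called chips 1 to 4 below. The array female MI 3 was the lowest of its group for both genes, though by its gap relative to the group's range it did not stand apart as an outlier for either, and results that rest on it are also given without it. Position F of a chip was filled by female MI 4, female sham 2 and male sham 3. With group means removed, 577 of 18683 detected probes read on average more than 1 log2 unit below the remaining arrays at this position, while Sprr1a averaged 0.20 and Crct1 -0.06 there.

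Sprr1a was near the detection limit in sham ventricles and detected in all 10 infarcted animals. In male sham mice 1 to 5 its raw intensity was 47.7, 37.9, 35.0, 43.0 and 56.0, and it was detected in mice 1 and 5 alone. In male MI mice it was 227.4, 209.0, 318.8, 245.1 and 396.3. Every male MI value lay above every male sham value, with mouse 5 the highest of both male groups. In female sham mice it was 43.9, 42.4, 46.3, 51.1 and 32.8, detected in mice 2, 3 and 4, with mouse 1 just outside the limit of 0.01 at 0.01068. In female MI mice it was 472.0, 457.0, 176.8, 539.9 and 345.4. By raw intensity female MI 3 was the lowest of all 10 infarcted animals, yet it lay above the highest sham value of either sex, 56.0.

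Crct1 was not detected in any of the 10 sham animals and was detected in all 10 infarcted ones. In male sham mice 1 to 5 the raw intensity was 38.2, 35.5, 32.9, 30.7 and 44.0. In male MI mice it was 316.8, 261.5, 375.4, 249.1 and 264.3, a narrow band well above the sham arrays. In female sham mice it was 32.7, 30.8, 28.8, 31.7 and 26.9. In female MI mice it was 312.4, 493.8, 90.6, 210.0 and 355.8. The female MI values spanned the widest range of the 4 groups, from mouse 3 to mouse 2, and again none overlapped with the sham animals, whose highest value was 44.0. Because Crct1 passed the filter on detection through its MI arrays alone, it could be tested only as a gene that was higher after MI.

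**Figure D1:**
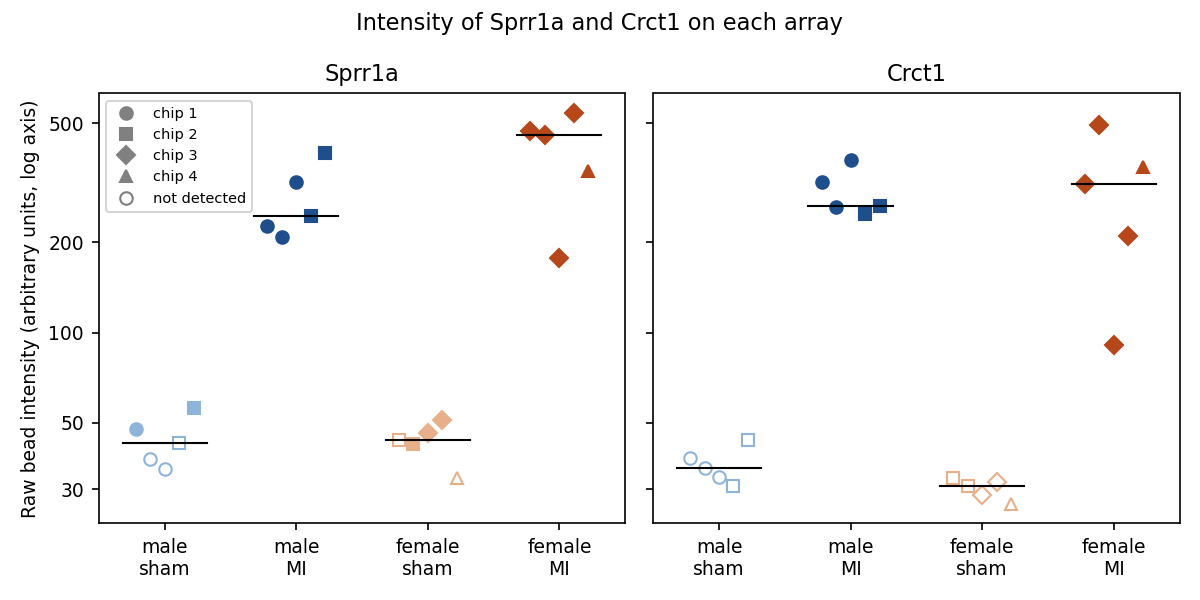
Raw bead intensity (arbitrary units, log axis) of Sprr1a and Crct1 on each of the 20 arrays, by group. Each point is 1 mouse, its shape gives the chip, open points were not detected and lines are group medians. All MI points lie above all sham points for both genes, and female MI 3 is the lowest MI point at 176.8 for Sprr1a and 90.6 for Crct1.

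After background correction and quantile normalisation, Sprr1a had a mean log2 intensity of 4.78 ± 0.332 (SD, n = 5) in male sham and 7.74 ± 0.386 in male MI. In females the means were 4.98 ± 0.344 after sham and 8.53 ± 0.692 after MI. The MI level was thus 7.77-fold higher in males (log2 difference 2.96, SE 0.264, 95% interval 2.41 to 3.51) and 11.7-fold higher in females (3.55, 3.00 to 4.10). Since sham arrays lie at or near the detection limit, these folds depend on the background correction. The lowest MI array lay 1.97 above the highest sham array on the log2 scale.

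Crct1 had a mean log2 intensity of 4.42 ± 0.194 (SD, n = 5) in male sham and 7.85 ± 0.253 in male MI. In females the means were 4.29 ± 0.0682 and 7.92 ± 0.933. The sham value is only a bound. With each sham array counted at the higher of its lowest detected signal and the probe's own value, the MI level of Crct1 was at least 7.57-fold higher in males and at least 8.64-fold higher in females. The measured log2 differences were 3.43 (95% interval 2.85 to 4.02) and 3.63 (3.05 to 4.22), and the gap between the lowest MI and the highest sham array was 1.67.

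Every MI array above every sham array was seen for both genes in both sexes. That pattern was found for 9.71% of 12921 measured genes and unnamed probes in males and for 8.11% in females. Because the rule that chose the genes used this difference, nothing is read from the pattern. Shares of all genes given below are of the same 12921. In bulk tissue, a change in the number of expressing cells and a change in RNA per cell cannot be told apart. By measured log2 difference, Sprr1a ranked 7 of 12921 in males and 4 in females. Crct1 is given no rank, since its sham value is a bound. Its folds of at least 7.57 in males and 8.64 in females are not set against the measured folds of Sprr1a. Sprr1a itself was detected on 5 of 10 sham arrays, so its ranks also depend on the background correction. The genes directly above Sprr1a in males were AA467197 (3.15) and Timp1 (an inhibitor of matrix proteases, 3.11), and those below it were Lox (the collagen cross-linking enzyme, 2.85) and Plac8 (2.80). In females, leaving Crct1 aside, the nearest gene above Sprr1a was Tnc (tenascin-C, 3.86). Below Sprr1a came AA467197 (3.47) and Cthrc1 (a secreted collagen triple helix protein, 3.42). In each sex the rank of Sprr1a counts Crct1 as a gene above it, by a measured value that rests on background readings in sham.

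Crct1 was 1 of 38 measured genes and unnamed probes (30 with a symbol), or 0.294% of 12921, that were detected on 0 of 10 sham and 10 of 10 MI arrays. The others include Cxcl10 (an interferon-induced chemokine) and the mitosis genes Kif18b (a kinesin), Ckap2, Troap and Cenpk, which are named here after their values were seen.

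The difference was of similar size within chips. Male MI exceeded male sham in Sprr1a by 2.94 on chip 1 (3 mice each) and by 2.99 on chip 2 (2 each). Female MI exceeded female sham by 3.40 on chip 3 (4 and 2 mice) and by 3.70 on chip 4 (1 each). For Crct1 the same differences were 3.60, 3.18, 3.51 and 4.04. The single pair on chip 4 has no replicate.

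Among sham-operated animals, Sprr1a was 0.19 higher in females on the log2 scale (95% interval -0.36 to 0.74, limma adjusted p = 0.809), a difference that was not detectable with 2 of 5 male and 3 of 5 female arrays above the detection limit. Crct1 was detected on 0 of 10 sham arrays, so its sham difference of -0.12 sets background readings against each other and no test is read from it. Of all measured genes, 0.108% were called in this comparison. On chip 2, where both sexes are present, the female minus male differences were 0.05 for Sprr1a and -0.17 for Crct1, from 2 mice each.

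After MI, Sprr1a was 1.72-fold higher in females than in males (log2 difference 0.78, 95% interval 0.23 to 1.33), which did not pass adjustment over all genes (limma adjusted p = 0.202). The groups overlapped: female MI 3 read below every male MI array except male MI 2 on the normalised scale. The difference was 1.04 and passed the threshold without female MI 3 (adjusted p = 0.0151), was 0.60 without female MI 4, and was 0.56 with the chip as a block (adjusted p = 0.570). No chip carries MI arrays of both sexes, so within-chip values cannot be had and the block rests on the sham arrays of chip 2. Crct1 differed by 0.08 (-0.51 to 0.66, adjusted p = 0.922), with the female values on both sides of the male ones. The background of this comparison was 0.139% of genes called, and 635 genes were called in place of 18 without female MI 3.

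For Sprr1a the response to MI was not shown to differ between the sexes. The female response exceeded the male one by 0.59 in Sprr1a (95% interval -0.19 to 1.37, limma adjusted p = 0.648) and the measured difference for Crct1, whose sham values are background readings, was 0.20 (-0.63 to 1.03). By limma 0% of the 12921 measured genes and unnamed probes were called for this interaction, against 1091 at an unadjusted p under 0.05. The intervals leave room for a female response of Sprr1a larger by up to 1.37 on the log2 scale.

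The spread among infarcted females was wider than among males, and much of this rests on female MI 3. The SD of Sprr1a was 1.79 times and that of Crct1 3.69 times as large in female as in male MI mice. In raw intensity the highest male MI array was 1.90 times the lowest for Sprr1a and 1.51 times for Crct1. In female MI mice these ratios were 3.05 and 5.45. Among 10278 named genes, the SD of Sprr1a exceeded that of 96.3% in male MI and 98.8% in female MI, and that of Crct1 exceeded 84.5% and 99.5%. Without female MI 3, which was chosen after seeing the data, the SD ratios were 1.14 for Sprr1a and 1.68 for Crct1, and the raw ratios among the other 4 females were 1.56 and 2.35.

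Over single MI animals no relation between the 2 genes passed the test. With the mean of each sex removed, Pearson's r between Sprr1a and Crct1 over 10 arrays was 0.58 (exact permutation within sex, two-sided p = 0.200, adjusted p = 0.412 over 35 pairs) and Spearman's rho was 0.22 (exact permutation p = 0.587). Without the arrays farthest from the median, female MI 3 and female MI 4, r was 0.17. Without female MI 3 it was -0.21, so the positive value rests on that array. With chip means removed r was 0.73 over 9 arrays (exact permutation p = 0.191).

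**Figure D2:**
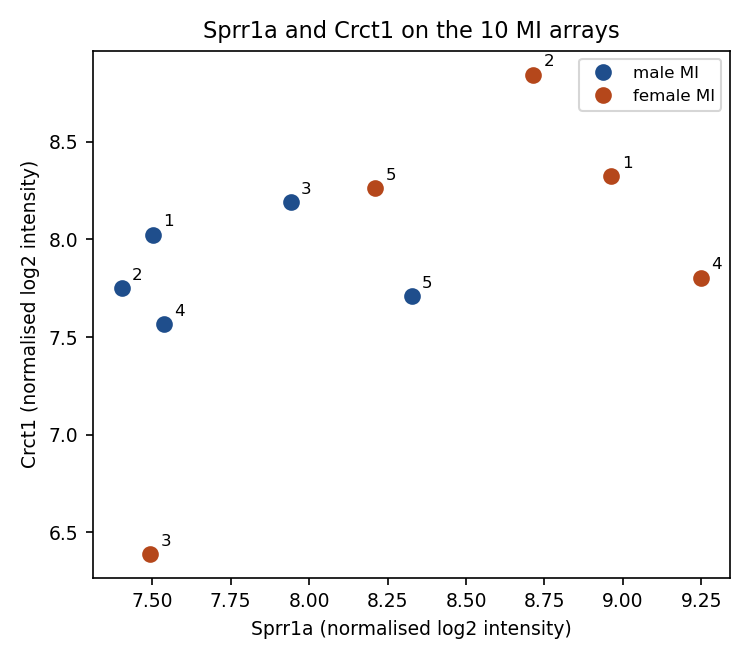
Normalised log2 intensity of Sprr1a against Crct1 on the 10 MI arrays, each point 1 mouse with its number. Female MI 3 is the lowest point for Crct1, and the other 9 arrays show no common slope (r = -0.21 without that mouse, sex means removed).

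Of 20 partner genes listed for this question, 18 had a probe and 17 were tested (Postn, periostin, was detected on no array), which gives 35 pairs with that of Sprr1a and Crct1. By Pearson's r 1 pair passed adjustment, 2 passed by Spearman's rho and 7 had an unadjusted p under 0.05. The pair that passed by both was Sprr1a with Lox, at r 0.96 (exact permutation p = 0.000556, adjusted p = 0.0194) and rho 0.90 (adjusted p = 0.0389). Its r was 0.89 without female MI 3 and female MI 4 (exact permutation, adjusted p = 0.389) and 0.92 without female MI 3 alone (adjusted p = 0.0972). It was 0.95 without the position F array (exact permutation, adjusted p = 0.0972) and 0.96 with chip means removed (adjusted p = 0.122). The call was thus lost in each of these 4 settings. Fewer arrays leave fewer pairings and raise the smallest p that can be reached, so a lost call does not by itself show a weaker relation. Sprr1a with Fn1, which encodes fibronectin, had r 0.87 (adjusted p = 0.0851) and rho 0.90 (adjusted p = 0.0389). The 10 points of each relation share chips and normalisation.

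The other matrix genes had lower values with Sprr1a: Tnc 0.80, Col1a1 (type I collagen) 0.71 and Timp1 0.70, none passing adjustment. With stress genes of heart muscle no relation passed the test. The r of Sprr1a was 0.30 with Nppa and -0.03 with Nppb (the natriuretic peptides), -0.14 with Ankrd1 (a sarcomeric stress protein), 0.25 with Acta1 (skeletal actin) and -0.42 with Myh7 (beta myosin heavy chain). Genes of gp130 signalling had r of 0.39 (Socs3, its feedback inhibitor), 0.21 (Osmr, the oncostatin M receptor) and 0.15 (Il6st, gp130 itself). With 10 arrays a moderate relation can be missed.

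Crct1 had its highest r with Arg1 (the macrophage arginase), at 0.87, and with Tgm2 (tissue transglutaminase), at 0.86 (exact permutation, adjusted p = 0.110 for each). Without female MI 3 these fell to 0.57 and 0.61. Its r with Timp1 was 0.74, and 0.35 without that mouse. With Lox it was 0.64, and -0.09 without it. Its r with the stress genes was 0.17 for Nppa, 0.43 for Nppb and -0.12 for Ankrd1.

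**Figure D3:**
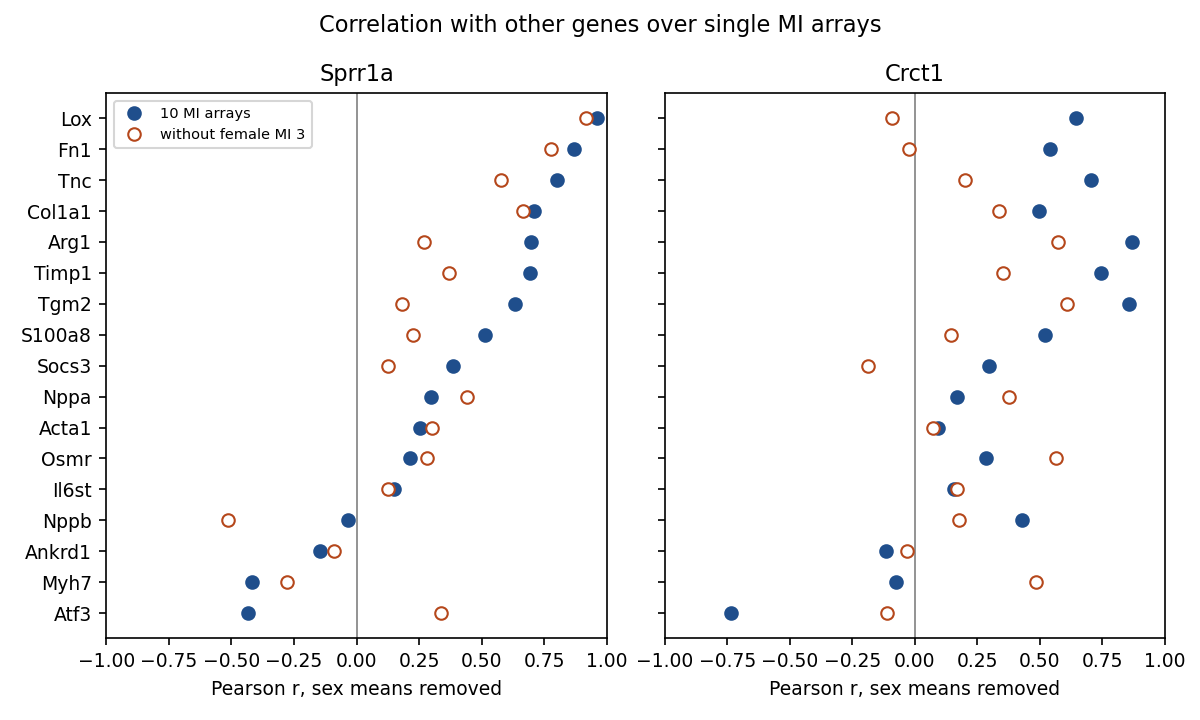
Pearson r of Sprr1a (left) and Crct1 (right) with each of 17 tested partner genes over single MI arrays, sex means removed. Filled points use 10 arrays and open points leave out female MI 3. Lox stays near the top for Sprr1a (0.96 and 0.92), while most high values for Crct1 fall without that mouse.

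Among all 10277 other named genes, 84 had r of at least 0.9 with Sprr1a over the 10 MI arrays and 23 had r of -0.9 or below. The median r was 0.01. The most alike were Hk3 (a hexokinase of myeloid cells, r 0.976), Apoc2 (an apolipoprotein, 0.974), B4galnt1 (a ganglioside synthase, 0.974), Cyp4f18 (a leukotriene hydroxylase of neutrophils, 0.968) and Reep4 (0.966). Each of these 5 kept r above 0.92 without female MI 3, the lowest being 0.928 for Reep4. The most opposed were Pitpnc1 (a phospholipid transfer protein, -0.967), Tfb1m (a mitochondrial rRNA methyltransferase, -0.961) and Ndufv2 (a subunit of respiratory complex I, -0.948). These genes were picked as extremes among 10277 over 10 arrays, so their r is a description.

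For Crct1, 14 genes had r of at least 0.9 and 13 had -0.9 or below. Iqgap1 (a cytoskeletal scaffold, r 0.949), Casp8 (the protease of death receptors, 0.937), Nudt5 (0.933), Gar1 (a small nucleolar RNA protein, 0.924) and Pak3 (a kinase, 0.922) came first. Without female MI 3 their r ranged from 0.595 for Pak3 to 0.813 for Casp8. Mkrn2 (-0.951), Frmd5 (-0.942) and Ctsf (cathepsin F, -0.940) came last. Over all 20 arrays, where sham and MI form separate groups and r mostly gives that gap, Sprr1a was most like S100a11 (0.985), Actn1 (0.982), H2ac22 (0.981), Fyb (0.981) and Fcer1g (0.981). Crct1 was most like Mefv (0.973), Casp8 (0.972), Mcm5 (0.972), Aurkb (0.971) and Dnah11 (0.969).

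Most genes around Sprr1a and Crct1 on the chromosome were not detected. RefSeq places 25 protein-coding genes between them, of which 21 had a probe and 1 was detected on any array: Lce1c, on 3 MI arrays, with a highest raw intensity of 45.7 among all 21. Of the 16 genes nearest on the outer sides, 13 had a probe and 0 were detected, the highest reading being 42.1. Sprr3 and Sprr4, the Sprr genes next to Sprr1a on the map, were detected on 0 arrays, as were Sprr1b and Ivl (involucrin).

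**Figure D4:**
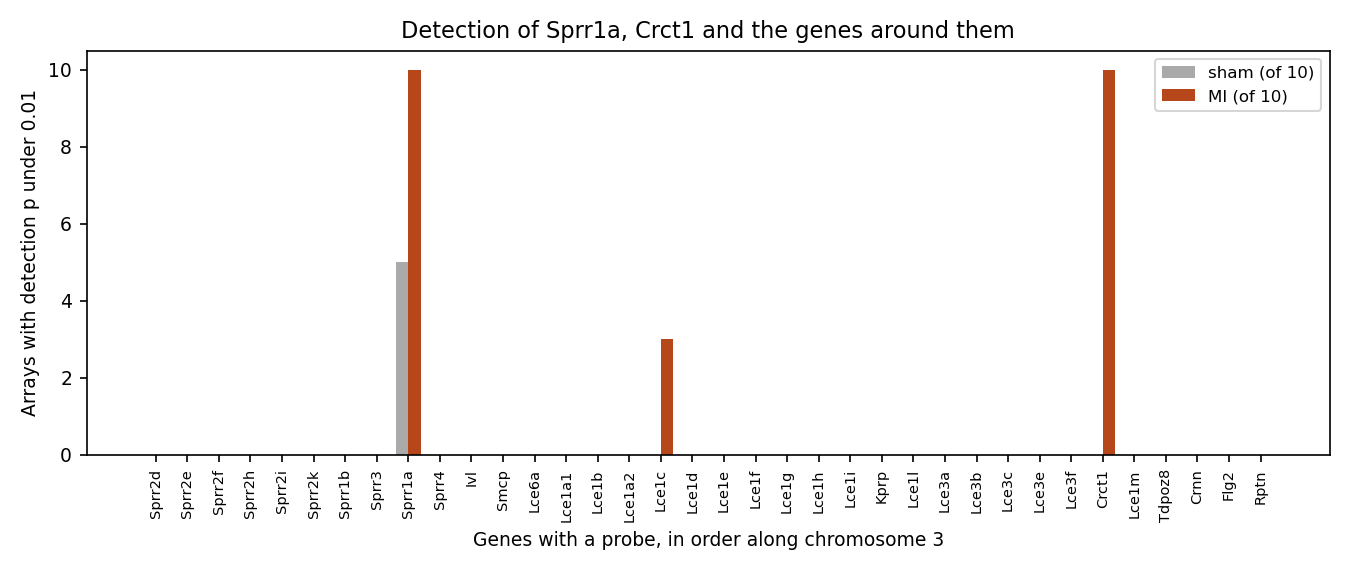
Number of arrays with a detection p under 0.01 among 10 sham (grey) and 10 MI (orange) arrays, for Sprr1a, Crct1 and the genes with a probe around them in their order along chromosome 3. Sprr1a reaches 5 sham and 10 MI arrays, Crct1 0 and 10, Lce1c 0 and 3, and the other genes shown 0.

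Beside the pair, 42 genes of the cornified envelope and its gene complex had a probe, and 37 of them were detected on no array. The 5 others were Sprr2a1 (20 arrays), Sprr2g (6 MI arrays), Lce1c and Tchhl1 (3 MI arrays each) and Lor, which encodes loricrin (1 MI array). Sprr2g and Sprr2a1 were the 2 that could be tested. Sprr2g was called higher after MI by 0.64 on the log2 scale in males (limma adjusted p = 0.00770) and 0.76 in females (adjusted p = 0.000977), and it was not called in males with scaling to the 75th percentile (0.42, adjusted p = 0.0826). It was detected on 0 of 10 sham arrays and on 3 of 5 MI arrays of each sex, so it too entered the test through its MI arrays, and its bound is at least 1.10-fold in females while no increase is assured in males. Sprr2a1 differed by -0.01 and 0.10 and was not called. Sprr2 genes are near-identical, and which of them a probe reads is uncertain. The background of calls towards higher levels was 9.77% of genes in males and 16.5% in females, and towards lower levels 8.59% and 16.3%.

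Of the S100 genes in the same complex, which encode small calcium-binding proteins, 13 had a probe and 10 were tested. In each sex 5 rose and 0 fell. The share of all genes called was 9.77% higher and 8.59% lower in males, and 16.5% and 16.3% in females. S100a1 was called lower in males with 75th percentile scaling (-0.55, limma adjusted p = 0.00285), and 1 fell in each sex without female MI 3. The list's median log2 difference was 0.78 in males and 0.64 in females, against -0.04 and -0.05 over all genes. S100a8 and S100a9 (the calprotectin subunits of neutrophils), S100a6 and S100a11 rose in both sexes. S100a8 rose by 1.93 (adjusted p = 0.00146) and 2.24 (adjusted p = 0.000147), and S100a11 by 1.17 (adjusted p = 1.10e-05) and 1.56 (adjusted p = 1.53e-07). S100a4 rose in males (0.88, adjusted p = 0.0289) and S100a16 in females (0.31, adjusted p = 0.0392).

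Of 13 genes of envelope cross-linking and scaffold with a probe, 6 were tested. Anxa1 (annexin A1), Cstb (cystatin B) and Tgm2 rose in both sexes, and Ppl (periplakin, a scaffold of the envelope) fell in both (median 0.39 in each). Beside these counts, 9.77% of all genes were called higher and 8.59% lower in males, and 16.5% and 16.3% in females. Tgm2, whose enzyme can cross-link Sprr proteins, rose by 0.50 in males (adjusted p = 0.00923) and 0.79 in females (adjusted p = 8.19e-05), and the male call ended with 75th percentile scaling (0.26, adjusted p = 0.237). Tgm1, the keratinocyte enzyme, was detected on 2 arrays and not tested. Ppl fell by 0.64 in males (adjusted p = 0.0425) and by 1.01 in females (adjusted p = 0.00123).

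**Figure D5:**
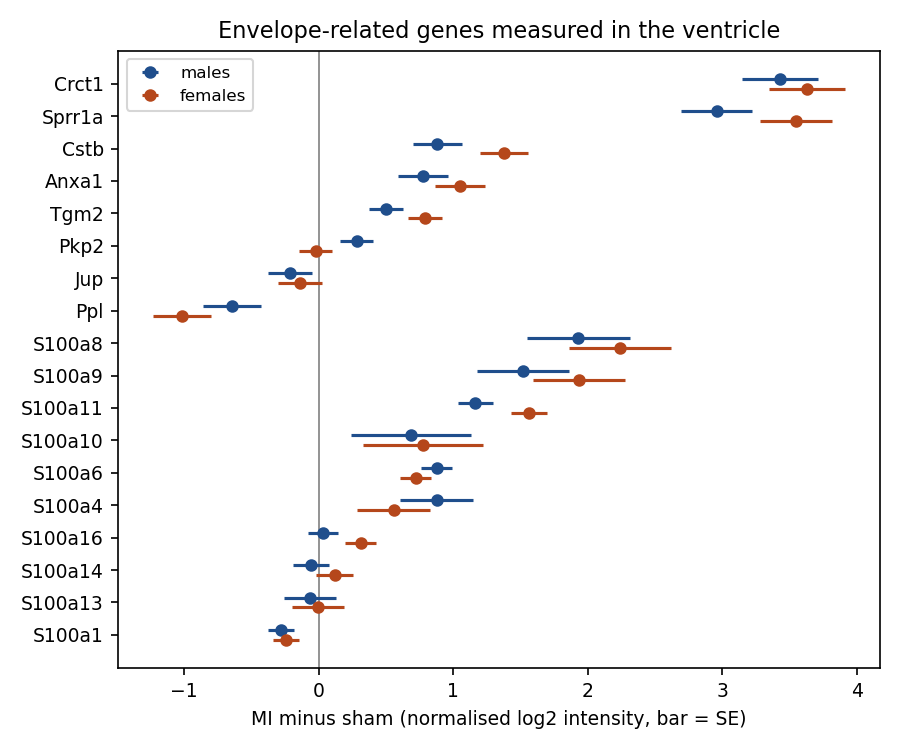
Log2 difference between MI and sham (bars are SE, n = 5 per group) for Sprr1a, Crct1 and the measured genes of envelope cross-linking and of the S100 group, in males (blue) and females (orange). Sprr1a and Crct1 lie between 2.96 and 3.63. They were chosen by this difference, so nothing is read from their place above the other genes. The sham value of Crct1 is only a bound. Among the others the largest is S100a8 at 2.24 in females.

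Most markers of keratinocytes and other epithelia were not detected: of 22 with a probe, 18 were detected on no array, among them Krt5, Trp63 and Epcam. The summed reading of all 22 ranged from 688 to 730 in male sham and from 636 to 689 in male MI. In females it ranged from 680 to 771 after sham and from 681 to 715 after MI. This sum takes in the background readings of the 18 undetected genes, so no epithelial level is read from it. Of the 3 tested, Krt10 fell in both sexes, Krt14 was not called, and Sfn (stratifin, detected on 6 MI and 0 sham arrays) was called higher in females by 0.76 (adjusted p = 0.000564). Of 6 tested markers of the mesothelium and epicardium, 0 rose in males and 1 in females, Krt18 (0.71, adjusted p = 0.00729). Krt18 was detected on 2 sham and 9 MI arrays, so it passed the filter on detection through its MI arrays. Over all genes 9.77% were called higher in males and 16.5% in females.

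Most tested markers of inflammatory cells and fibroblasts were higher in the same groups as the pair. Of 9 neutrophil markers with a probe, 4 were detected on no array and the 5 tested were called higher in each sex, Cxcr2 among them through its MI arrays alone. Of 13 tested fibroblast and myofibroblast markers 10 rose in each sex. Pdgfra (0.27 in males and 0.12 in females) and Dcn (0.19 and 0.20) were called in neither sex, Acta2 not in males and Lum not in females. Of 10 macrophage markers 9 rose in males and 10 in females. Among the fibroblast and macrophage markers, Cthrc1 (detected on 4 sham and 10 MI arrays) and Ccr2 (1 and 9) passed the filter on detection through their MI arrays. With 75th percentile scaling the male calls of Cxcr2 (0.22, adjusted p = 0.380) and Ccr2 (0.52, adjusted p = 0.0612) were lost. The summed macrophage level ranged from 3112 to 4346 in male sham, 7032 to 9669 in male MI, 2836 to 5163 in female sham and 6282 to 13840 in female MI. The summed fibroblast level ranged from 12910 to 16989, 22685 to 27199, 10973 to 19714 and 24061 to 32354 in the same order. Their part in the levels of Sprr1a and Crct1 was not tested. Of 11 cardiomyocyte markers 1 fell in males and 3 in females, Ckm (muscle creatine kinase) in both, and 4 fell in males with 75th percentile scaling. The background towards lower levels was 8.59% of genes in males and 16.3% in females, and towards higher levels 9.77% and 16.5%. The 1 male fall of 11 is near that share. With 75th percentile scaling 2047 of 12921 genes and unnamed probes were called lower in males.

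Of 22 gp130 cytokines, receptors and feedback genes with a probe, 17 were tested. In males 2 rose, Osmr (0.66, adjusted p = 0.00839) and Cebpd (0.80, adjusted p = 0.00931), and Ctf1, which encodes cardiotrophin-1, fell. In females Osmr (0.81, adjusted p = 0.000845), Socs3 (1.42, adjusted p = 0.00128), Il11, Osm and Bcl3 rose, and Ctf1 and Lifr (the leukaemia inhibitory factor receptor) fell. Il11 (detected on 1 sham and 8 MI arrays) and Osm (4 and 10) passed the filter on detection through their MI arrays. Lif, Clcf1 and Cntf were detected on no array. Beside the background of 9.77% higher and 8.59% lower in males, and 16.5% and 16.3% in females, 2 of 17 rose and 1 fell in males, and 5 rose and 2 fell in females. The list's median was 0.29 in males and 0.25 in females.

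Of 18 ventricular stress genes, 4 rose in males (8 without the position F arrays) and 10 in females, and 0 fell, with medians of 0.42 and 0.70. Ccn2 (connective tissue growth factor) rose by 1.56 in males (adjusted p = 2.03e-05) and 1.52 in females (adjusted p = 8.05e-06), and Nppa by 0.84 (adjusted p = 0.00110) and 0.89 (adjusted p = 0.000269). Of 16 AP-1 and injury transcription factor genes, Runx1 rose in both sexes (0.48 and 0.62), Sox9 and Klf6 rose in females and Klf4 fell in females. Runx1 was detected on 2 sham and 9 MI arrays, so it passed the filter on detection through its MI arrays. Its bound in males is at least 1.13-fold. The background of calls was 9.77% higher and 8.59% lower in males, and 16.5% and 16.3% in females. The list's counts, 1 rise in males and 3 in females, are near or below these shares. The AP-1 genes Fos, Jun, Junb and Atf3 were not called in either sex. Of 8 tested genes of nerve injury and regrowth, Cd44 (the hyaluronan receptor, 1.21 and 1.33) rose in both sexes and Stmn2 fell in both, while Gadd45a fell in females. Gal (galanin) was called higher in both (0.73 and 0.78) but was detected on 0 sham and 6 MI arrays, so it entered the test through its MI arrays alone. With 75th percentile scaling the male differences of Runx1, Gal, Nppa and Ankrd1 kept their sign and were no longer called. The same held for the female differences of Osm (adjusted p = 0.0628) and Klf6 (adjusted p = 0.0549).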

How the data were processed

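The authors deposited, per the file headers, a bead intensity and a detection p-value for each probe and array, with no normalisation visible in the values. They also deposited log2 values that appear quantile normalised without background subtraction (column medians 5.14 to 5.15, not centred), used as an alternative. Their correlation with the intensity of the same array was 0.997 or higher on 20 of 20 arrays. No source used here gives the scanner software or array version.

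The intensity table was processed in R 4.3.3 with limma 3.58.1, whose function neqc subtracts the background, adds an offset (16), quantile normalises and returns log2 values. The platform annotation gave 1 symbol for 34885 of 45281 probes, several for 18 and none for 10378. The 18683 probes with a detection p under 0.01 on at least 5 arrays were kept, and testing the brightest of them per symbol gave 12921 genes and unnamed probes. A linear model of all 20 arrays had a mean for each group and no covariate. Genes were called at an adjusted p under 0.05 (limma's moderated test, adjusted over all 12921 by Benjamini-Hochberg), and every adjusted p of a difference between groups comes from it. Correlations over MI arrays used values with sex means removed and exact permutation within sex, 14400 pairings each. Precision is limited by the 5 arrays per group.

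The members, gene lists, partner genes and motifs were chosen with earlier results of these data known. Beside Sprr1a and Crct1, the text names partner genes, the 5 most and 3 least alike genes, neighbours in rank, up to 4 called genes per list with the largest differences together with other listed genes picked after their values were seen, and every envelope gene detected. Replicate numbers count the arrays of each group in sample order, since the titles give group, chip and position but no replicate number. Same-numbered arrays did not deviate together: the correlation of their deviations was over 0.1 for 2 or 3 of 5 pairs per comparison, so the numbers are not treated as pairs. The closest 2 arrays had a median absolute log2 difference of 0.123, and each counts as 1 mouse. Alternatives changed the background correction, scaling, probe filter, probe choice, block, samples and value table.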

Additional observations from a re-analysis of the deposited data

Results flagged for a closer look

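Single arrays standing apart from their group were looked for in 19 genes and 4 groups of 5 mice, by the gap to the nearest array relative to the group's range. Chance flags about 1 in 20 groups, and 4 of 76 were found, with 0 of them in Sprr1a or Crct1. All were low on the normalised log2 scale. Nppb read 12.4 in male MI 5, against 13.1 for the nearest of the other 4 mice. Ankrd1 read 13 in female MI 5, against 13.3. Tnc read 9.12 in male MI 4, against 9.64. Il6st, which encodes gp130, read 7.58 in male sham 3, a position F array, against 8.47.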

How the results depend on the processing

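Differences of Sprr1a and Crct1 between MI and sham were those that chose the genes, so their direction under the alternatives says nothing about stability. Their size depended on the background setting: with an offset of 50 they were 2.01 and 2.62 for Sprr1a and 2.26 and 2.40 for Crct1 in males and females. Leaving out 1 array in turn gave 2.81 to 3.07 and 3.37 to 3.81 for Sprr1a, and 3.35 to 3.51 and 3.40 to 4.01 for Crct1. The same ranges were 0.08 to 0.31 and -0.18 to -0.05 for the sex difference after sham, 0.60 to 1.04 (adjusted p = 0.0151 to 0.517) and -0.15 to 0.46 after MI, and 0.41 to 0.85 and -0.03 to 0.58 for the interaction. Crct1 after MI was reversed without female MI 1 (-0.02), 2 (-0.15) or 5 (-0.01), and its interaction without female MI 2 (-0.029).

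Counts of called genes were 2373 in males (624 within chip 2, 1711 to 2711 without 1 array) and 4231 in females (946 within chip 3, 3501 to 4634). The sex comparison after sham gave 14 (7 with the chip as a block, 7 with the 2 groups alone, 1 within chip 2, 9 to 45 without 1 array: 45 without male sham 4, 26 without female sham 2, 9 without male sham 1 or female sham 4). After MI it gave 18 (4 with the chip as a block, 11 to 635 without 1 array: 11 without female MI 2 or 4). The interaction gave 0 throughout. With 75th percentile scaling, calls in males were 998 higher and 2047 lower in place of 1263 and 1110, and the cause was not tested. Of the 35 correlated pairs 1 was called. It was 0 without the arrays farthest from the median, without position F, with chip means removed or without female MI 3 (the last chosen after seeing the data), each with fewer arrays and permutations, and 5 with sex means kept. The r of Sprr1a with Crct1 without female MI 3 was -0.21. Without female MI 3 the AP-1 and injury list had 2 rises in males in place of 1.

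The replicate number as a block (replicate block) gave 2177 called genes in males, 4117 in females, 15 and 15 for the sex comparisons and 0 for the interaction. It changed no call of Sprr1a or Crct1, and since the arrays share only a number it is no paired result.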
